A study of Mus musculus with 24 samples.

Results

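Accessible regions deep inside genes were examined in germinal center (GC) B cells of mice that had lost 1 allele of Crebbp, of Kmt2d or of both. The regions were the autosomal ATAC-seq peaks that lay wholly inside the body of a protein-coding gene, overlapped no annotated exon and were more than 10 kb from every annotated transcription start site (TSS). Of the 65483 consensus peaks, 9312 (14.2%) met this rule, and they lay in 3063 host genes. They are called intronic peaks here. ATAC-seq uses a transposase that cuts open DNA, so the number of fragments in a peak measures how accessible that stretch of chromatin was.

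GC B cells were sorted from spleen 10 days after immunization with sheep red blood cells (SRBC), in mice of 8 weeks, with 60000 cells per library and 1 library per mouse. All 17 mice carried the Cg1Cre+/- allele, which expresses Cre from the immunoglobulin gamma 1 locus and therefore acts in B cells of the GC reaction rather than in the whole animal. The 4 WT mice carried Cg1Cre+/- alone, the 4 C mice also carried Crebbp fl/+, the 4 K mice also carried Kmt2d fl/+, and the 5 CK mice carried both floxed alleles. Each mutant mouse therefore kept an intact allele of each gene, and the comparisons ask what the loss of 1 allele, alone or combined, does to accessibility at these regions.

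Introns hold many enhancers, short regions where transcription factors bind and from which they act on promoters of the same gene or of a neighboring gene. CREBBP is an acetyltransferase that places H3K27ac on active enhancers, and KMT2D is a methyltransferase that places H3K4me1 on enhancers. GC B cells pass between a dark zone, where they divide and mutate their antibody genes, and a light zone, where they are selected with help from T cells.

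Each library held 17483706 to 21857738 peak fragments. Peaks on the short arm of chromosome Y held 1421 to 1742 fragments in 9 libraries and 0 or 1 in the other 8, although the study describes female mice, and both kinds of library occurred in each genotype. Peaks at the start sites of GC B cell markers were present for 10 of 10 genes. Among T cell markers 4 of 18 had a peak, with none at Cd3e, Cd3d, Cd3g, Cd4 or Cd8a, and their summed level was 16.1 to 19.1 CPM (fragments scaled to a common library size) for WT mice, 16.5 to 19.5 for C, 20.1 to 21.7 for K and 19.5 to 22.4 for CK. Among myeloid markers 8 of 14 had a peak, with none at Csf1r, Itgam or Lyz2, and their summed level was 99.0 to 111 CPM for WT mice, 96.6 to 105 for C, 113 to 137 for K and 112 to 134 for CK. The GC B cell markers summed to 629 to 709.8 CPM for WT mice, 586 to 634 for C, 621 to 648 for K and 569 to 649 for CK. The T cell and myeloid sums thus lay higher in K and CK than in WT, and their part in the results for these 2 genotypes was not tested. In bulk samples a change in the mix of cells and a change within cells cannot be told apart.

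The intronic peaks had a median length of 752 bp, against 910 bp over all peaks, and a median GC content of 45.5%, against 48.2%. Their median distance to a TSS was 19888 bp and the farthest lay 364778 bp away. Of the 9100 peaks that could be assigned to a numbered intron, 27.5% lay in the first intron and 8.40% in the last. The median peak held 52.5 fragments per library, against 85.5 over all peaks, so that single intronic peaks were measured less precisely than promoters. A host gene held a median of 2 intronic peaks, 1318 genes held 1, and 164 held 10 or more.

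The sequences below are the central 300 bases of the peaks on which the account of CK turns, on the plus strand of GRCm38 (mm10). They are the 4 lost and the 4 gained peaks of lowest adjusted p among peaks in which all CK mice lay on 1 side of all WT mice, taking at most 1 per gene, outside stretches with many calls in C, and leaving out Tcf4. They were read from the reference genome and not from the mice. Capitals mark exact matches, on either strand, to 11 motifs of factors active in B cells or common at open chromatin: GAGGAAGT (PU.1 and SPIB), ATGCAAAT (octamer), CAGCTG (E-box), TGANTCA (AP-1), TGTGGTT (RUNX) and GGGCGG (GC box of SP and KLF factors), and the longer motifs of EBF1, NF-kB, MEF2, CTCF and an ETS factor with IRF. The center is the midpoint of the peak, which need not be its summit. The peaks lost in CK were the following.
Psd3 (chr8:68160026-68160325): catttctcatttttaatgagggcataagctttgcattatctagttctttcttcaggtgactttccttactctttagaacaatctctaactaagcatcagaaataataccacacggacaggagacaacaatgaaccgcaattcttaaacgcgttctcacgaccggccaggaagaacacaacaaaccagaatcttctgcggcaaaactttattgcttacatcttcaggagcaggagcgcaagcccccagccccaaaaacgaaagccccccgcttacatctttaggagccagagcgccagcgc
Fam19a4 (chr6:97016072-97016371): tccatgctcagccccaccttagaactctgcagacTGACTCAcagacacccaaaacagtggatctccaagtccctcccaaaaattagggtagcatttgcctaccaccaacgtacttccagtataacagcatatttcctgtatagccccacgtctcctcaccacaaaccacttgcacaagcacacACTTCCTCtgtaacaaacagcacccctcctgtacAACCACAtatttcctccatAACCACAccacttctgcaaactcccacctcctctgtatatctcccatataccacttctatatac
Adap1 (chr5:139286179-139286478): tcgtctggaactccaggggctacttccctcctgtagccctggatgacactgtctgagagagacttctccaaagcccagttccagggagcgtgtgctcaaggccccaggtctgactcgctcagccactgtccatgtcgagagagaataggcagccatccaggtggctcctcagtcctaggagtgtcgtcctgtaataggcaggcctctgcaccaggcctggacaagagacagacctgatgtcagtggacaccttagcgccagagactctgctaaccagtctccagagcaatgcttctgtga
Atxn1 (chr13:45614870-45615169): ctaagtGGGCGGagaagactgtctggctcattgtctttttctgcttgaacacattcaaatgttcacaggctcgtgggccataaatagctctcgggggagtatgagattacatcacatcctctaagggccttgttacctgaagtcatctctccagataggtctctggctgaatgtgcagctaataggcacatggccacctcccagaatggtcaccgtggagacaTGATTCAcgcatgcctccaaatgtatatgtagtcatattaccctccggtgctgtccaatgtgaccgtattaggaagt

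The peaks gained in CK were the following.
Me3 (chr7:89842599-89842898): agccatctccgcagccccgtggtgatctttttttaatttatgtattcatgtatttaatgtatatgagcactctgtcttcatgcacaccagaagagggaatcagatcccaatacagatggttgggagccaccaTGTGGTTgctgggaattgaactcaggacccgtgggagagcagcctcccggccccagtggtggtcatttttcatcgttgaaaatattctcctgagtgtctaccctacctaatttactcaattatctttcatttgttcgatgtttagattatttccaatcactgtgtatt
Gucy1b2 (chr14:62425370-62425669): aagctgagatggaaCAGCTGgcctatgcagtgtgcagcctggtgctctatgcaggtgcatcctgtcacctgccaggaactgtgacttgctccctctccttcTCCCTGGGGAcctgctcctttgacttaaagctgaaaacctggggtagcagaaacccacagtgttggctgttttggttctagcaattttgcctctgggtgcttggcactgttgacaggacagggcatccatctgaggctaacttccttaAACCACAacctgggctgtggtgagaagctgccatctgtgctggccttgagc
Prkar2b (chr12:31973528-31973827): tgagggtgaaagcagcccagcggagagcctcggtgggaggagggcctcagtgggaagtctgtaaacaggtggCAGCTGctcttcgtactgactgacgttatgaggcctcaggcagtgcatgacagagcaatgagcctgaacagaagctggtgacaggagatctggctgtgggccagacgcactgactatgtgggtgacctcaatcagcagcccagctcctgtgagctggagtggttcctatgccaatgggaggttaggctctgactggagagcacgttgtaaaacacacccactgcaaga
Smyd3 (chr1:179163553-179163852): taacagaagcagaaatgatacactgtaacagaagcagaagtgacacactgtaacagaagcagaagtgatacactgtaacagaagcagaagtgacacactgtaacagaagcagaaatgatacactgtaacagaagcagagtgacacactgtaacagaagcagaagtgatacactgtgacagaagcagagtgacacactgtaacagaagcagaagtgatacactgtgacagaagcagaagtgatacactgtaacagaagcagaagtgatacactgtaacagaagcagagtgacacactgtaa

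In these windows the Fam19a4 peak held 1 PU.1 or SPIB match, 1 AP-1 match and 2 RUNX matches, and the Atxn1 peak held 1 AP-1 match and 1 GC box. The Gucy1b2 peak held 1 E-box, 1 RUNX match and 1 EBF1 match, the Prkar2b peak held 1 E-box, and the Me3 peak held 1 RUNX match. The windows of Psd3, Adap1 and Smyd3 held no match. The Smyd3 window is a tandem repeat in which the commonest word of 11 bases occurs 12 times.

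Loss of accessibility outnumbered gain at intronic peaks in K and CK, and few changed in C. In CK, 388 intronic peaks (4.17%) were lost and 142 (1.52%) were gained, where 3.30% of all 65483 peaks were lost and 3.54% gained, at an adjusted p of 0.01 in edgeR's quasi-likelihood test. In K, 106 (1.14%) were lost and 29 (0.311%) gained, where 0.828% of all peaks were lost and 0.647% gained. In C, 9 (0.0966%) were lost and 7 (0.0752%) gained, where 0.101% of all peaks were lost and 0.0596% gained, so that the intronic share in C was close to that of all peaks. The 3 comparisons share the same WT mice. In all, 8746 intronic peaks (93.9%) were called in none of them.

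**Figure D1:**
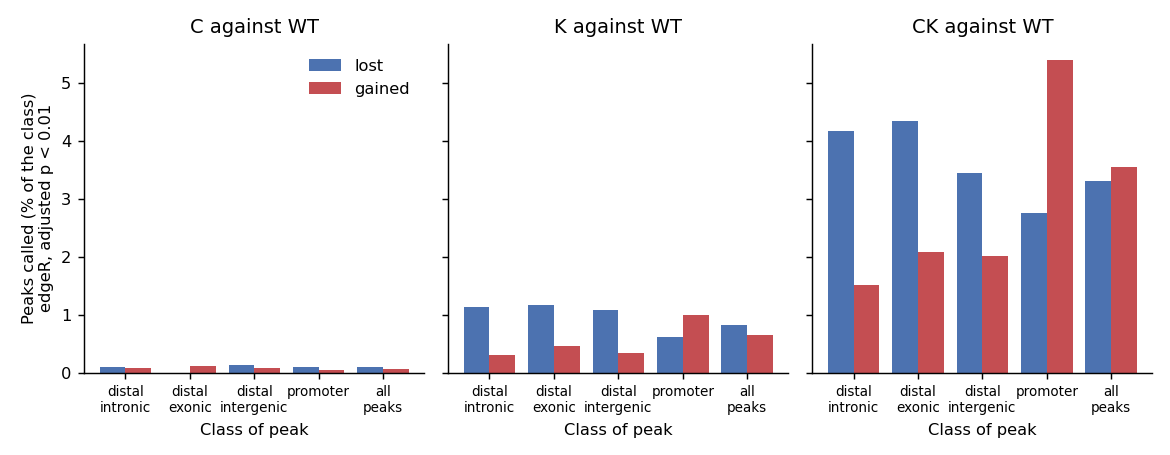
Percentage of peaks called lost (blue) or gained (red) at an adjusted p under 0.01 in C, K and CK against WT, for distal intronic, distal exonic, distal intergenic and promoter peaks and for all peaks. In CK the lost bar exceeds the gained bar at intronic peaks (4.17% against 1.52%), and the order is the opposite at promoters (2.76% against 5.40%).

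More losses than gains were also counted at the other peaks far from promoters. Among 9355 intergenic peaks more than 10 kb from a TSS, 322 (3.44%) were lost and 189 (2.02%) gained in CK, and among 1727 exonic peaks at that distance, 75 (4.34%) were lost and 36 (2.08%) gained. Among 31584 promoter peaks, within 5 kb of a TSS, 873 (2.76%) were lost and 1706 (5.40%) gained. The median log2 fold change in CK was -0.061 at intronic peaks, with an interquartile range from -0.24 to 0.13, and was -0.036 at exonic, -0.0039 at intergenic and 0.027 at promoter peaks. In K the median at intronic peaks was -0.064, and in C it was 0.014. Single peaks thus spread far more widely than the groups of peaks differed.

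The difference between intronic and other peaks depended on whether the counts were scaled by GC content. The median GC content was 45.5% at intronic and 51.3% at promoter peaks. Such scaling therefore also takes out differences between the classes that go with GC content, and the part of GC content itself was not tested. When the counts were centered within 20 bins of GC content, CK had 271 intronic losses (2.91%) and 177 gains (1.90%), where the shares were 3.37% and 2.58% over all peaks and 3.97% and 3.30% at promoters. The share of losses among the intronic calls in CK was then 60.5%, where it was 73.2% without the centering. The median in CK was then -0.013, and in K it was -0.017. Losses still outnumbered gains at intronic peaks under this centering, whereas in CK the higher rate of loss than in all peaks was not kept. In K, 0.902% of intronic peaks were then lost, against 0.728% of all peaks and 0.681% of promoter peaks. The number of calls also rested on single WT mice. Without WT mouse 4, 167 intronic peaks were lost and 75 gained in CK, without WT mouse 3 the counts were 240 and 80, and without WT mouse 2 they were 296 and 78. In K, 29 were lost without K mouse 1, and 8 were gained without WT mouse 4. Leaving out WT mouse 2 or 3, K mouse 2 (losses) or K mouse 4 (gains) also moved a count in K by more than 1.5 times.

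The share of each library taken by intronic peaks had lower means in K and CK than in WT and C. As a percentage of fragments in autosomal peaks, the WT mice had 7, 6.88, 7.20 and 7.36, and the C mice had 7.01, 7.03, 7.38 and 7.30. The K mice had 6.42, 6.57, 6.96 and 7.07, and the CK mice had 6.50, 6.73, 6.91, 6.73 and 6.80. For the 4 WT, 4 C, 4 K and 5 CK mice the means were 7.11% ± 0.214, 7.18% ± 0.188, 6.76% ± 0.308 and 6.73% ± 0.147 (SD). The CK and WT mice overlapped only in that CK mouse 3 lay above WT mouse 2, whereas K mice 1 and 2 lay below all WT mice and K mice 3 and 4 within the WT range.

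The same share was also read beside the chromosome Y signal and the share of promoters. Libraries with Y signal had the lower mean in WT, C and CK and the higher mean in K. In WT and C the libraries with Y signal were those of mice 1 and 2. In libraries with Y signal the means for WT, C, K and CK were 6.94%, 7.02%, 6.82% and 6.62%, and in libraries without it they were 7.28%, 7.34%, 6.57% and 6.81%, so that CK lay below WT in both. K without Y signal was 1 mouse. Of the fragments of the 4 WT mice 74.0% ± 0.641 (SD) were at promoter peaks, against 75.2% ± 0.460 for the 5 CK mice, and intergenic peaks took 7.40% ± 0.157 and 7.11% ± 0.144. Among fragments of peaks more than 10 kb from a TSS alone, the intronic share was 42.4% ± 0.310 (SD) for WT mice and 42.1% ± 0.373 for CK mice, a difference within the spread between mice.

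**Figure D2:**
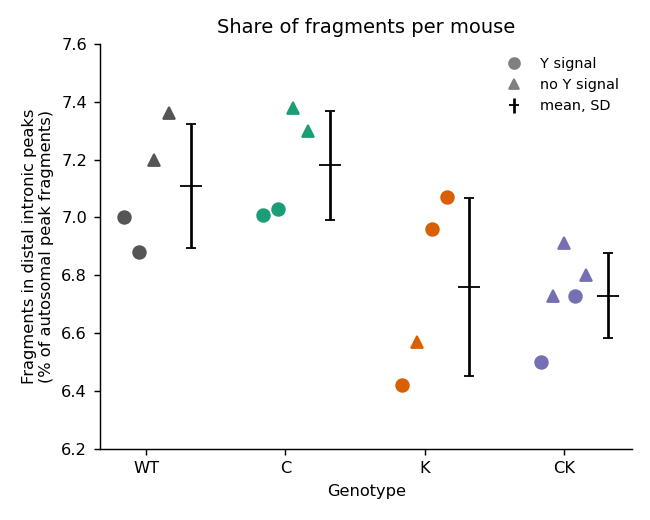
Percentage of autosomal peak fragments that fell in distal intronic peaks, 1 point per mouse, as a circle for libraries with chromosome Y signal and a triangle for those without, with the mean and SD of each genotype beside the points. The axis does not start at 0. The CK mice lie between 6.50% and 6.91% and the WT mice between 6.88% and 7.36%.

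Among the peaks lost in CK, the changes were larger in CK than in either single mutant. The 388 lost peaks had a median log2 fold change of -0.58 in CK, where they were chosen, of -0.41 in K and of -0.14 in C. The 142 gained peaks had medians of 0.71 in CK, 0.45 in K and 0.30 in C. Of the lost peaks 83 were also called lost in K and 8 in C, and of the gained peaks 19 were also called in K and 5 in C. Since all 3 mutants were set against the same WT mice and the peaks were chosen in CK, these values are a description. The direct comparisons among mutants take no difference from WT. The WT mice still entered them through the shared scaling and the shared estimate of the spread. In CK against C, 115 intronic peaks were lower and 18 higher in CK, where 0.770% and 0.907% of all peaks were called. In K against C, 85 were lower and 16 higher in K, where 0.505% and 0.283% of all peaks were called. Under GC content bins the counts were 64 lower and 19 higher in CK against C, and 57 and 17 in K against C. Both comparisons also rested on single mice, with 133 calls in CK against C falling to 36 without C mouse 4 and 48 without CK mouse 1, and 101 calls in K against C falling to 20 without C mouse 4, 25 without K mouse 1 and 28 without K mouse 4. Without C mouse 1, 2 or 3 there were 71 to 79 calls in CK against C and 45 to 49 in K against C, without CK mouse 4 there were 81 in CK against C, and without K mouse 2 there were 51 in K against C. In CK against K only 1 intronic peak was called, where 0.00916% of all peaks were called in either direction. An unadjusted edgeR p under 0.05 was found at 745 of the 9312 intronic peaks and at 4814 of all 65483 peaks. DESeq2 called 5 in CK against K. Set against both single-mutant changes added together, 1 intronic peak deviated in CK, where 0.0107% of all peaks did so. In that test 411 intronic peaks and 2444 of all 65483 peaks had an unadjusted p under 0.05. DESeq2 called 2.

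The chance of a call rose with the depth of the peak. The peaks were split into 5 equal bins. In the lowest bin by mean count (2.06 to 20.2 fragments per library), 13 were lost and 11 gained in CK, and in the highest (182 to 3523 fragments) 190 were lost and 34 gained. Length gave a like picture, with 19 lost in the shortest bin and 190 among the longest. The median log2 fold change in CK was 0.0046 in the lowest and -0.089 in the highest bin by count. The deepest bin therefore had both the most precise values and the most negative median. By GC content, the median was -0.10 in the lowest bin and -0.0086 in the highest, while the share lost was 3.06% and 3.97%.

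Shares lost in CK by position within the gene lay close together, whereas the share gained was lowest near a TSS. The share gained was 1.02%, 1.24%, 1.40%, 2.09% and 1.88% from the nearest bin to the farthest. The share lost in CK was 3.81% in the bin of intronic peaks nearest to a TSS (10001 to 12995 bp) and 3.92% in the farthest (37331 to 364778 bp), with medians of -0.063 and -0.057. In first introns 4.07% were lost and in later introns 4.29%. Just inside the limit of the rule, the 1323 intronic peaks at 10 to 12 kb had 3.85% lost, 1.06% gained and a median of -0.061 in CK. Just outside it, the 1636 intronic peaks at 8 to 10 kb had 4.16% lost, 0.917% gained and a median of -0.057.

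**Figure D3:**
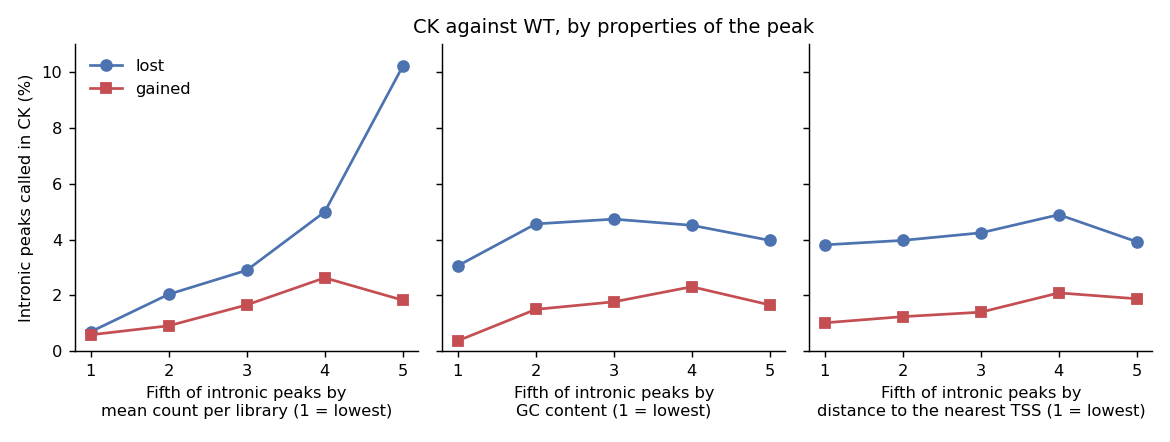
Percentage of intronic peaks lost (blue) or gained (red) in CK against WT, in 5 equal bins of the 9312 peaks by mean count per library, GC content and distance to the nearest TSS. Loss climbs from 0.698% to 10.2% with count and stays between 3.81% and 4.89% across distance.

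By the rule given with the sequences, the losses described for CK were at peaks in Psd3, Fam19a4, Adap1, Atxn1 and Susd6. Psd3 encodes an exchange factor for the small GTPase ARF6. Its peak in the first intron (chromosome 8, 68159735 to 68160615) had 2.39, 1.93, 3.23 and 0.886 CPM in the WT mice, 0.189, 0.135, 0.202 and 0.372 in the C mice, 0, 0.227, 0.105 and 0.0461 in the K mice, with 0.197, 0.215, 0.0473, 0.0996 and 0.115 in the CK mice. Every mutant mouse lay below every WT mouse, and the value of 0 in K mouse 1 allows up to 0.159 CPM (3 counts). The log2 fold change was -3.93 ± 0.42 (SE) in CK, -4.46 ± 0.49 in K and -3.24 ± 0.41 in C, with edgeR adjusted p of 3.18e-06, 1.81e-05 and 0.000112.

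Fam19a4 encodes a small secreted protein related to chemokines. Its peak (chromosome 6, 97015873 to 97016569), shown above with its PU.1, AP-1 and RUNX matches, had 2.98, 2.14, 1.78 and 2.33 CPM in WT, 1.70, 1.44, 1.77 and 1.59 in C, 0.584, 0.453, 0.680 and 0.461 in K, with 0.591, 0.861, 0.663, 0.448 and 0.807 in CK. K and CK lay below WT and C without overlap. On the log2 scale the change was -1.77 ± 0.20 (SE, edgeR adjusted p = 6.20e-06) in CK and -2.07 ± 0.23 (adjusted p = 1.81e-05) in K, and was -0.50 ± 0.19 (adjusted p = 0.386) in C.

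Adap1 encodes an ARF GTPase-activating protein that binds membrane phosphoinositides. Its peak (chromosome 5, 139285292 to 139287364) had 59.3, 57.8, 56.8 and 58.3 CPM in WT, 55.1, 52.9, 53.7 and 61.2 in C, 41.4, 40.6, 47.9 and 42.3 in K, with 42.3, 38.9, 43.2, 44.7 and 43.3 in CK. The K and CK mice again lay below all WT and C mice, and the C mice overlapped WT. Its log2 fold change was -0.45 ± 0.054 (SE, edgeR adjusted p = 9.96e-06) in CK and -0.43 ± 0.057 (adjusted p = 0.000157) in K.

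Atxn1, the gene of the transcriptional repressor ataxin 1, held a peak (chromosome 13, 45614741 to 45615298) with 2.71, 2.45, 2.48 and 3.10 CPM in WT, 1.18, 1.49, 1.36 and 1.70 in C, 0.743, 0.680, 1.05 and 1.02 in K, with 1.03, 1.13, 1.09, 0.897 and 0.922 in CK. All 3 mutant genotypes lay below WT, and K and CK lay below C. The log2 fold change was -1.40 ± 0.17 (SE, edgeR adjusted p = 1.06e-05) in CK, -1.60 ± 0.18 (2.89e-05) in K and -0.91 ± 0.17 (0.00840) in C, where the call was lost in 11 of the 17 fits that left out a mouse. Susd6, which encodes a membrane protein with a sushi domain, held a peak in its first intron (chromosome 12, 80815132 to 80816863) with 9.95, 10.9, 10.9 and 14.3 CPM in WT, 11.2, 11.1, 10.3 and 11.9 in C, 7.16, 7.36, 6.65 and 6.74 in K, with 5.86, 4.68, 7.53, 5.93 and 5.93 in CK. C overlapped WT, whereas K and CK did not. On the log2 scale the change was -0.94 ± 0.12 (SE, edgeR adjusted p = 1.42e-05) in CK.

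By the same rule, the gains described for CK were at peaks in Me3, Gucy1b2, Tcf4, Prkar2b and Smyd3. Me3 encodes a mitochondrial malic enzyme. Its only intronic peak (chromosome 7, 89841698 to 89843798) had 13.8, 14.3, 13.1 and 14.7 CPM in WT, 15.1, 14.6, 13.8 and 14.7 in C, 21.5, 21.8, 19.3 and 18.3 in K, with 21.6, 22.5, 19.7, 21.6 and 22 in CK. Its log2 fold change was 0.62 ± 0.071 (SE, edgeR adjusted p = 6.20e-06) in CK and 0.53 ± 0.075 (adjusted p = 0.000327) in K, with every K and CK mouse above every WT and C mouse.

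Gucy1b2 encodes a subunit of soluble guanylate cyclase. Its only intronic peak (chromosome 14, 62425100 to 62425938), which holds the EBF1 and E-box matches shown above, had 4.90, 4.07, 4.17 and 4.82 CPM in WT, 5.29, 5.19, 7.13 and 6.42 in C, 8.23, 7.25, 6.91 and 9.04 in K, with 8.96, 8.67, 7.95, 9.81 and 8.76 in CK. The levels lay in the order WT, C, K and CK, although K overlapped both C and CK. The log2 fold change was 0.98 ± 0.12 (SE, edgeR adjusted p = 1.13e-05) in CK, 0.81 ± 0.12 (0.000652) in K and 0.42 ± 0.13 (0.207) in C.

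Prkar2b, which encodes a regulatory subunit of protein kinase A, held a gained peak (chromosome 12, 31973187 to 31974168) with 8.30, 7.62, 9.23 and 7.86 CPM in WT, 8.35, 7.35, 9.45 and 9.19 in C, 12, 12.4, 10.4 and 12.4 in K, with 15.9, 17.5, 13.4, 12.4 and 13.5 in CK. Its log2 fold change was 0.81 ± 0.11 (SE, edgeR adjusted p = 2.71e-05) in CK and 0.51 ± 0.11 (0.00912) in K. The peak in Smyd3, a lysine methyltransferase gene, lies on the repeat shown above (chromosome 1, 179162725 to 179164679) and had 5.96, 4.39, 5.39 and 4.32 CPM in WT, 6.75, 7.26, 4.70 and 5.73 in C, 6.47, 7.65, 6.65 and 6.41 in K, with 11.7, 9.31, 9.75, 8.77 and 7.84 in CK. Only CK lay above all other genotypes there, with a log2 fold change of 0.92 ± 0.13 (SE, edgeR adjusted p = 7.29e-05). The difference between CK and K was 0.48 ± 0.13 (adjusted p = 0.251) and did not pass the test.

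**Figure D4:**
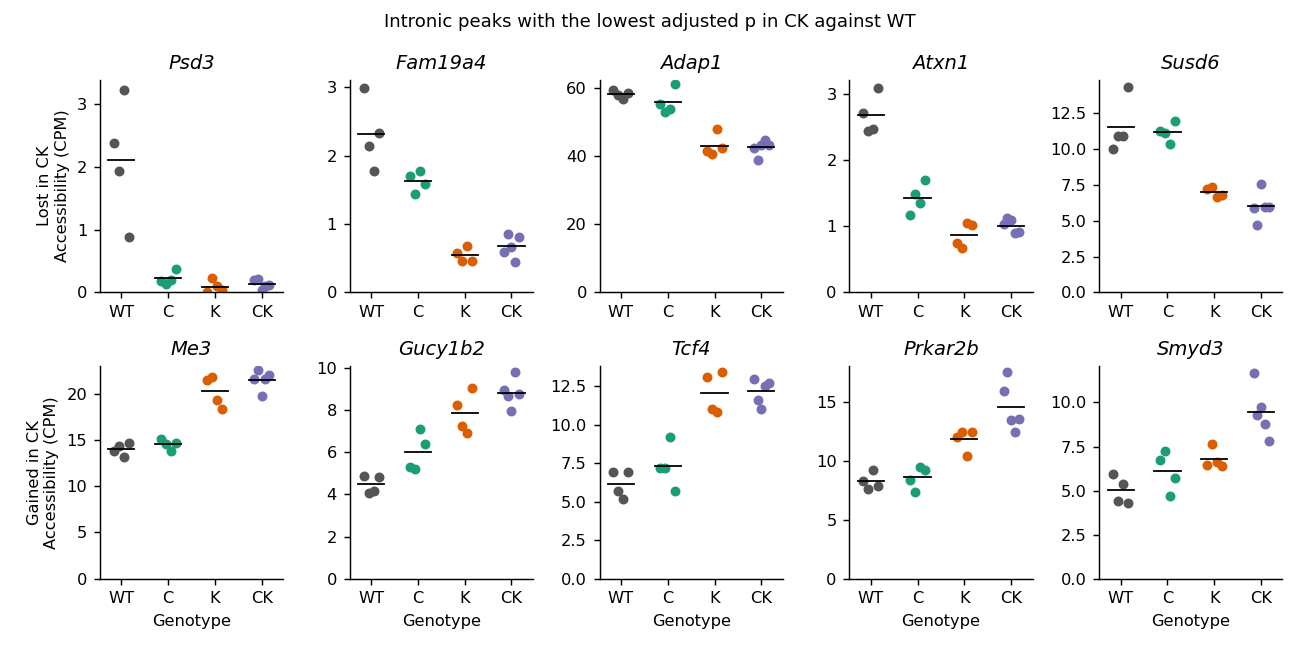
Accessibility in CPM of 5 intronic peaks lost (top) and 5 gained (bottom) in CK, those of lowest adjusted p among peaks outside windows rich in C calls, at most 1 per gene, in which all CK mice lay on 1 side of all WT mice, with 1 point per mouse and the mean of each genotype as a line. The rule sets CK apart from WT, K lies apart from WT in all 10 panels, and C lies apart from WT in Psd3, Fam19a4, Atxn1 and Gucy1b2.

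Tcf4 gained accessibility in K and CK when its intronic peaks were summed. The gene encodes E2-2, an E protein transcription factor of the B lineage, and held 17 intronic peaks, of which 15 had a positive log2 fold change in CK with a median of 0.50, and 4 were called gained. The 4 lay between 69372521 and 69477314 on chromosome 18, whereas the 6 peaks from 69537166 onward stood at -0.10 to 0.36 in CK with none called. The peak with the lowest adjusted p in CK (chromosome 18, 69372521 to 69374892) had 6.92, 5.69, 5.20 and 6.92 CPM in WT, 7.22, 7.22, 9.20 and 5.73 in C, 13.1, 11, 10.8 and 13.4 in K, with 13, 11.6, 11, 12.5 and 12.7 in CK. K and CK lay above WT and C without overlap, and overlapped each other. On the log2 scale the change was 0.98 ± 0.12 (SE, edgeR adjusted p = 1.40e-05) in CK and 0.97 ± 0.13 (0.000126) in K. A second peak in a later intron (69471829 to 69473821) led the gains in K at 0.67 ± 0.083 (SE, adjusted p = 6.70e-05) and reached 0.58 ± 0.080 (3.67e-05) in CK. When the intronic peaks of the gene were summed, WT mice had 83.3, 78.0, 72.1 and 78.0 CPM, C mice 85.5, 83.7, 89.9 and 77.3, K mice 109, 97.6, 111 and 116, and CK mice 109, 110.5, 108, 109 and 109. The sum rose by 0.49 ± 0.053 (SE, adjusted p = 4.06e-06) in CK and by 0.48 ± 0.056 (2.95e-05) in K.

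Some peaks were named through K or C rather than CK. The peak in Kif13b, a kinesin gene (chromosome 14, 64768537 to 64769568), had 18.5, 16.2, 18.5 and 14.1 CPM in WT, 17.6, 16.5, 17.6 and 16.7 in C, 7.85, 7.70, 10.4 and 9.69 in K, with 13.2, 12.1, 10.6, 11.2 and 9.33 in CK. K and CK lay below WT and C and overlapped each other. Its log2 fold change was -0.91 ± 0.11 (SE, edgeR adjusted p = 6.15e-05) in K and -0.58 ± 0.10 (0.000540) in CK. The Med12l peak was gained in K at 0.55 ± 0.098 (SE, edgeR adjusted p = 0.00213), with 24.6 to 28.3 CPM in WT and 32.2 to 43.0 in K. The Cdk14 peak was gained in K at 0.96 ± 0.18 (SE, edgeR adjusted p = 0.00258), with 1.77 to 3.33 CPM in WT and 3.96 to 5.62 in K. Med12l encodes a paralog of a Mediator subunit and Cdk14 a cyclin-dependent kinase. Both lost the call without WT mouse 4 or K mouse 1, and Cdk14 also without WT mouse 2.

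In C, the peak in Aff3, which encodes a nuclear protein of the AF4 family (chromosome 1, 38267917 to 38269029), had 14.1, 13.7, 15.3 and 14.6 CPM in WT, 22.2, 20.6, 22.2 and 22.6 in C, 11.2, 10.7, 12.9 and 10.8 in K, with 12.7, 13.4, 13.3, 13 and 12.7 in CK. C stood above all other genotypes, at 0.60 ± 0.074 (SE, edgeR adjusted p = 9.44e-05), while K was at -0.34 ± 0.078 (0.0123) and CK at -0.15 ± 0.073 (0.176). The peak in Fancl, a ubiquitin ligase gene of DNA crosslink repair (chromosome 11, 26437813 to 26438503), was lost in C at -1.21 ± 0.19 (SE, edgeR adjusted p = 0.00164), with 1.81 to 2.56 CPM in WT and 0.897 to 1.22 in C, and stood at 0.0048 ± 0.17 (0.999) in K. Its call did not pass without WT mouse 3, C mouse 1 or C mouse 4. The peak in 2900026A02Rik (chromosome 5, 113180086 to 113181811) was lost in C at -0.78 ± 0.12 (SE, edgeR adjusted p = 0.000893), with 10.2 to 11.3 CPM in WT and 5.41 to 7.74 in C, and in CK at -0.75 ± 0.11 (6.58e-05), and stood at -0.31 ± 0.11 (0.104) in K.

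Of the 16 intronic calls in C, 10 lay in 6 windows of 5 Mb in which C had 5 or more calls among all peaks, on chromosomes 1, 7 and 11. These windows held 238 intronic peaks, and without them 6 calls were left in C. Without WT mouse 3 there were 9 intronic calls in C. Of the calls against WT, 10 of the 135 calls in K and 31 of the 530 in CK lay in them. The part of these chromosome stretches in the C results was not tested.

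The 1 intronic peak called in CK against K was in Vti1a, a gene of a vesicle fusion protein (chromosome 19, 55483700 to 55484652). The K mice had 5.20, 0, 5.55 and 5.17 CPM, whereas WT had 0.160, 0.104, 0.281 and 0.111, C had 0.0944, 0.180, 0.101 and 0.212, and CK had 0.246, 0.108, 0.237, 0.249 and 0.288. Thus 3 of 4 K mice were far above all other mice and K mouse 2 had 0 fragments, which allows up to 0.170 CPM. The log2 difference of CK from K was -4.12 ± 0.57 (SE, edgeR adjusted p = 0.00297), and the call was lost when K mouse 1, CK mouse 2 or CK mouse 3 was left out, and in the fit of these genotypes alone. The peak that deviated from the sum of C and K was in Msi2, the gene of an RNA-binding protein (chromosome 11, 88604715 to 88606654). It had 10.2, 7.83, 8.95 and 9.91 CPM in WT, 17.3, 17.1, 18.2 and 18.2 in C, 17, 14.3, 17.3 and 17 in K, with 14.6, 16.6, 14.1, 9.41 and 17.2 in CK. All C mice lay at or above 17.1 and CK spread widely, with CK mouse 4 within the WT range, and the deviation was -1.13 ± 0.17 (SE, adjusted p = 0.00652). This peak lies in one of the windows rich in C calls, and the deviation passed in 4 of the 17 fits without a mouse.

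The intronic peaks of each host gene were also summed and tested as 1 feature. In CK, 176 of 3063 host genes were lost (5.75%) and 68 gained (2.22%), and in K 57 were lost (1.86%) and 13 gained (0.424%). In C, 7 genes were called (0.229%). In CK against C, 58 were lower (1.89%) and 10 higher (0.326%), and in K against C, 42 were lower (1.37%) and 5 higher (0.163%). No host gene (0%) was called by edgeR in CK against K or against the sum of C and K, where 257 and 128 had an unadjusted p under 0.05, and DESeq2 called 2 in CK against K. Under GC content bins, 127 host genes were lost and 87 gained in CK, a share of losses of 59.3% where it was 72.1%, and in K against C that share was 78.0% where it was 89.4%.

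Xylt1 held the most lost peaks of the host genes in CK. It encodes the enzyme that starts glycosaminoglycan chains. All 24 of its intronic peaks lay below 0 in CK and 11 were called lost. Its sum was 328, 302, 318 and 352 CPM in WT, 270.4, 288, 293 and 303 in C, 250.3, 249.6, 281 and 328 in K, with 259, 203, 205, 279.5 and 288 in CK. The CK mice lay below all WT mice, while K mouse 4 lay within the WT range. The log2 fold change was -0.40 ± 0.089 (SE, edgeR adjusted p = 0.00361) in CK, and -0.23 ± 0.094 (0.146) in K. In Gna12, the gene of a G protein alpha subunit, 6 of 7 intronic peaks were lost. Its sum was 36.1, 35.8, 44.1 and 46.7 CPM in WT, 43.1, 41.0, 38.4 and 41.5 in C, 26.7, 27.1, 24.3 and 28.7 in K, with 24.7, 24.7, 28.8, 24.3 and 30.7 in CK. K and CK overlapped, with log2 fold changes of -0.61 ± 0.090 (SE, adjusted p = 0.000240) and -0.61 ± 0.085 (4.34e-05), and C at 0.012 ± 0.087 (0.992).

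Pax7, a gene of a muscle stem cell transcription factor, had 4 of 5 intronic peaks lost in CK. Its sum had means of 47.2 ± 2.86, 41.2 ± 2.10, 33.8 ± 2.08 and 30.2 ± 3.10 CPM (SD) for the WT, C, K and CK mice. On the log2 scale the change was -0.64 ± 0.070 (SE, edgeR adjusted p = 4.06e-06) in CK, -0.48 ± 0.074 (0.000296) in K and -0.20 ± 0.073 (0.369) in C. Myo9b, an unconventional myosin gene, was lost in CK at -0.64 ± 0.077 (SE) and in K at -0.59 ± 0.082, and Lrrfip1, a nucleic acid-binding protein gene, at -0.43 ± 0.053 and -0.32 ± 0.056. The sum of Adap1 was lost at -0.44 ± 0.055 and -0.46 ± 0.059. Atp10b, a lipid flippase gene, differed from these in that the loss was called in C at -0.78 ± 0.12 and in CK at -0.92 ± 0.11 and was not called in K at -0.29 ± 0.11, and it lies in a window rich in C calls.

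Among the host genes with gains, Prkar2b had all 6 intronic peaks above 0 and a sum that rose by 0.66 ± 0.084 (SE, edgeR adjusted p = 1.29e-05) in CK and by 0.41 ± 0.089 (0.00664) in K. Ppm1e, a protein phosphatase gene in a window rich in C calls, rose by 0.56 ± 0.10 (SE) for C mice, 0.51 ± 0.10 for K mice and 0.66 ± 0.097 for CK mice. Ldlrad4, whose product restrains TGF-beta signaling, had 5 of 17 intronic peaks gained and none lost in CK, and its sum rose by 0.31 ± 0.064 (SE, adjusted p = 0.00201). Of the 3063 host genes, 288 held a lost and 120 a gained intronic peak in CK, and 10 held both. Whether this overlap differs from that of genes drawn at random was not tested. The 10 genes included Ebf1, Msi2 and the read-through model Gm20388.

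The genes with the most intronic peaks changed little as a whole. Bach2, which restrains plasma cell differentiation, held 54 intronic peaks, none of them called in CK, and its sum was at -0.034 ± 0.061 (SE, edgeR adjusted p = 0.758). Arid1b, a subunit of the BAF remodeling complex, held 41, with 2 gained and a sum at 0.032 ± 0.035 (0.573). Foxp1, a transcription factor that is high in resting B cells, held 39, with 2 lost and a sum at -0.041 ± 0.052 (0.648). Fgfr2 held 44 within an annotated model of 2961 kb that reaches over neighboring genes, with none called and a sum at -0.074 ± 0.043 (0.250). Gm20388, a read-through model of 4435 kb, held 102, with 4 lost, 2 gained and a sum at -0.11 ± 0.032 (0.0202). The sum of Gm20388 was called by edgeR under GC content bins (adjusted p = 0.00756) and by DESeq2 (adjusted p = 0.00322). In all, 64 intronic peaks lay only in read-through models.

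**Figure D5:**
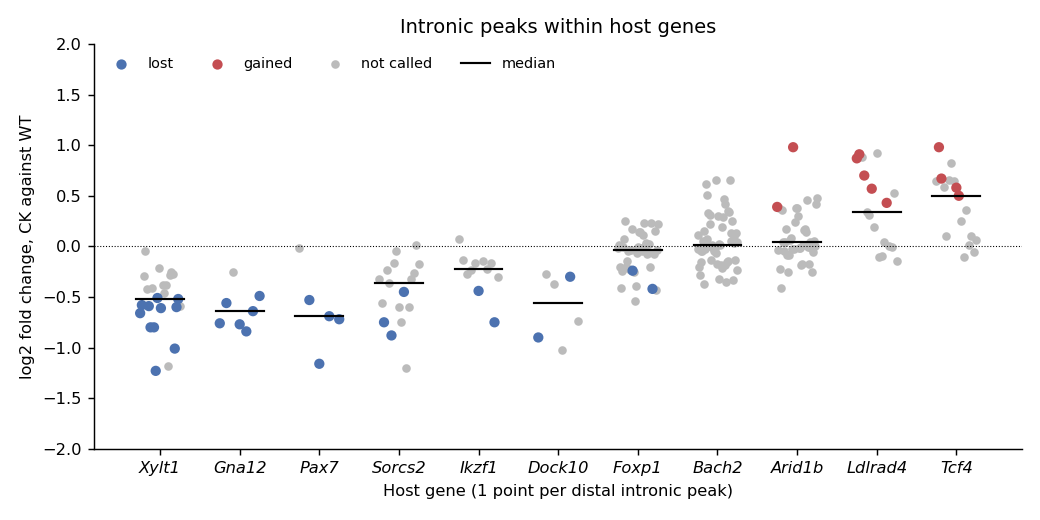
Log2 fold change in CK against WT of each intronic peak in 11 host genes, with called losses in blue, called gains in red, other peaks in gray and the median of each gene as a line. All 24 peaks of Xylt1 lie below 0 and 15 of the 17 peaks of Tcf4 lie above it, while the 54 peaks of Bach2 lie on both sides with none called.

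The intronic peaks of 6 groups of genes were then counted. For B-lineage and GC transcription factors, 22 of 33 genes held 310 intronic peaks, with 7 lost (2.26%) and 6 gained (1.94%) in CK and a median log2 fold change of -0.038, against -0.061 over all intronic peaks. Under GC content bins these were 4 lost, 9 gained and 0.012, so that the direction of this group turned with the scaling. Besides Tcf4, the gains were at Ebf1 and Zbtb20, and the losses were 2 peaks each of Ikzf1 and Foxp1 and 1 each of Ebf1, Elf1 and Ets1. The Zbtb20 peak was very shallow, with 3, 3, 6 and 4 fragments in the WT mice and 10 to 17 in the CK mice. Its call was lost in 4 of the 17 fits that left out a mouse. Under GC content bins 1 of the peaks of Ikzf1, 1 of Foxp1 and the peak of Elf1 did not pass, and these calls were also lost in 5, 9 and 6 of the 17 fits that left out a mouse. In the last intron of Ikzf1, the gene of the lymphoid regulator Ikaros, the peak at 11765448 to 11766749 on chromosome 11 had 18, 16.9, 18 and 20.4 CPM in WT, 12.7, 13.7, 14.7 and 17.8 in C, 11.5, 13.4, 12.5 and 11.3 in K, with 10.6, 10.6, 13.2, 10.2 and 9.56 in CK. Its levels fell in that order of means, and only C overlapped WT. Its log2 fold change was -0.75 ± 0.10 (SE, edgeR adjusted p = 2.88e-05) in CK and -0.59 ± 0.11 (0.00221) in K. Over its 11 intronic peaks Ikzf1 was lost at -0.28 ± 0.057 (edgeR adjusted p = 0.00201). Runx1, a regulator of blood lineages, was lost over its 9 intronic peaks at -0.28 ± 0.066 (0.00459), with none called alone. The call of this sum did not pass with total counts (edgeR adjusted p = 0.0112). In Ebf1, which specifies the B lineage, a peak was gained in CK at 0.39 ± 0.10 (edgeR adjusted p = 0.00912) and another lost at -0.55 ± 0.11 (0.00108), both in a window rich in C calls, and the gain did not pass in 13 of the 17 fits without a mouse.

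For B-cell receptor and NF-kB signaling, 22 of 36 genes held 136 intronic peaks, with 6 lost (4.41%) and none gained in CK and a median of -0.070. Under GC content bins these were 4 lost, none gained and -0.018. The losses included 2 peaks of Pik3ap1 and 1 each of Inpp5d, whose peak lies in a window rich in C calls, Rasgrp1 and Rasgrp3. The Rasgrp1 call did not pass under GC content bins or in 7 of the 17 fits without a mouse, and the Inpp5d call did not pass without WT mouse 4. Pik3ap1 encodes the adaptor BCAP and Inpp5d the phosphatase SHIP1, while Rasgrp1 and Rasgrp3 activate Ras. The log2 fold changes of these peaks ran from -0.23 ± 0.044 (SE, edgeR adjusted p = 0.00115) at the larger Pik3ap1 peak to -0.41 ± 0.077 (0.000915) at Rasgrp3, where WT mice had 97.5, 97.9, 101 and 122 CPM and CK mice 80.9, 73.9, 69.1, 80.0 and 90.7. The adaptor gene Blnk was lost in its sum at -0.16 ± 0.041 (0.00821), a call that did not pass under GC content bins or total counts.

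For T-cell help, costimulation, antigen presentation and cytokine receptors, 10 of 32 genes held 24 intronic peaks, of which 20 lay below 0 in CK, where 58.9% of all intronic peaks did, with 3 lost, none gained and a median of -0.17. Under GC content bins these were 1 lost, none gained and -0.15. The lost peaks were in Ciita, the master regulator of MHC class II genes, in Cd86, a costimulatory ligand, and in Pdcd1lg2, which encodes the inhibitory ligand PD-L2. The Ciita peak had 65.0, 65.9, 65.8 and 79.7 CPM in WT, 62.8, 62.2, 73.0 and 79.0 in C, 49.9, 52.0, 58.9 and 63.7 in K, with 57.8, 53.5, 52.3, 56.2 and 55.8 in CK. K and CK lay below WT, and C overlapped it. The log2 fold changes in CK were -0.33 ± 0.074 (SE, edgeR adjusted p = 0.00412) at Ciita, -0.27 ± 0.066 (0.00674) at Cd86 and -0.49 ± 0.13 (0.01000) at Pdcd1lg2. Of the 17 fits without a mouse, the call was lost in 3 at Ciita, 7 at Cd86 and 12 at Pdcd1lg2, and without WT mouse 4 none of the 3 passed. Cd86 and Pdcd1lg2 did not pass under GC content bins, and Pdcd1lg2 also not with total counts or loess offsets.

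For migration, chemotaxis and cytoskeleton, 14 of 27 genes held 119 intronic peaks, of which 88 lay below 0 in CK, again beside the 58.9% of all intronic peaks, with 4 lost, none gained and a median of -0.14. These were 2 lost, 1 gained and -0.086 under GC content bins. The losses were at Dock10, with 2 peaks, Dock2 and Myo1e, which encode exchange factors for small GTPases and a membrane myosin. Neither Dock10 peak passed under GC content bins, and each lost the call in 6 of the 17 fits without a mouse. The Dock2 peak (chromosome 11, 34383300 to 34385578) had 5.16, 6.16, 6.23 and 6.48 CPM in WT, 4.39, 4.96, 6.07 and 3.93 in C, 3.13, 3.85, 4.40 and 3.92 in K, with 3.00, 1.56, 2.84, 2.84 and 3.92 in CK, and was lost at -1.09 ± 0.17 (SE, edgeR adjusted p = 0.000117) in CK. The CK mice lay below all WT mice, and this peak too lies in a window rich in C calls. For chromatin regulators, 20 of 37 genes held 144 intronic peaks, with 4 lost and 5 gained in CK and a median of -0.063. These were 2 lost, 6 gained and 0.013 under GC content bins. The gains were 3 peaks of Hdac9 and 2 of Arid1b, and the losses included 2 peaks of Jarid2, a partner of PRC2, and 1 of Chd7. Neither Jarid2 peak passed under that scaling. Of the 17 fits without a mouse, the call was lost in 5 and 4 at the Hdac9 peaks that start at 34722874 and 34725226. The second of these was shallow, with 28, 19, 35 and 7 fragments in the WT mice. At the Arid1b peak that starts at 5008921 the call was lost in 5, and at the other Hdac9 and Arid1b gains in 0. For the losses it was lost in 1 and 3 at Jarid2 and in 2 at Chd7. For neuronal genes with long introns, which are not known for a role in B cells, 13 of 34 genes held 57 intronic peaks, with 3 lost, all in the sorting receptor gene Sorcs2, none gained and a median of -0.088, and 1 of these losses did not pass in 7 of the 17 fits without a mouse. The counts of losses in these groups, from 2.26% to 12.5% of their peaks, lie around the 4.17% of all intronic peaks, and no group of genes was tested.

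The targeted genes themselves were little covered. Crebbp held 3 intronic peaks, and their sum was 3.78, 3.81, 3.70 and 3.32 CPM in WT, 4.63, 4.69, 3.34 and 3.98 in C, 3.61, 4.02, 3.61 and 3.14 in K, with 3.99, 3.34, 3.98, 3.88 and 3.98 in CK, with overlap between all genotypes. These peaks overlap no exon and do not check the deletion. Kmt2d held no intronic peak.

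The motifs shared by intronic peaks were counted in their central 300 bases. For the 1044 intronic peaks shorter than 300 bases, this window reached outside the peak. The share with a PU.1 or SPIB match was 6.51% of intronic and 5.84% of all peaks, with an octamer match 5.58% and 4.17%, with a MEF2 match 6% and 4.69%, with a RUNX match 9.56% and 8.46%, and with an AP-1 match 10.6% and 8.92%. The GC box was at 5.57% of intronic and 17.6% of all peaks. At distal intergenic peaks the shares were 7.43% (PU.1 or SPIB), 5.16% (octamer), 5.41% (MEF2), 9.43% (RUNX) and 10.8% (AP-1). At promoter peaks they were 4.82%, 3.12%, 3.82%, 7.20% and 7.38%, with the GC box at 28.3%. Intronic and intergenic peaks thus both lay above all peaks for these motifs and promoters below, and the GC box ran the other way. The differences from all peaks are therefore not particular to introns. The octamer was at 7.22% of the peaks lost in CK and 3.52% of those gained, MEF2 at 7.73% and 4.23%, and PU.1 or SPIB at 7.73% and 7.04%. The shares of gained peaks rest on few peaks, with the octamer in 5 and MEF2 in 6 of 142. The share with an E-box was 13.4% for lost and 21.8% for gained peaks, against 17.1% of all intronic peaks, and in a window of 500 bases these shares were 22.7%, 27.5% and 25.7%. The GC box was at 4.64% of lost and 9.86% of gained peaks, and in the wider window at 7.22% and 16.2%, against 8.31% of all intronic peaks. The EBF1 and NF-kB motifs and the ETS with IRF element were rarer, at 1.18%, 1.18% and 5.42% of intronic peaks. These are exact letters, and a match is not evidence of binding.

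Few peaks with a CTCF match were called. CTCF is a zinc finger protein that anchors chromatin loops. Its motif was in 899 intronic peaks (9.65%), close to the 10.5% of all peaks, of which 7 (0.779%) passed the test as lost in CK and 1 (0.111%) as gained, where the shares over all intronic peaks were 4.17% and 1.52%. In K, 1 was lost and 2 gained, and in C none was called. Their median log2 fold change in CK was -0.031 with an interquartile width of 0.32, against -0.061 and 0.37. These peaks were shorter, at a median of 521 bp, and shallower, at a median of 36.4 fragments per library against 52.5, which limits calls, and the part of depth in the difference was not tested. The motif was held by 1.80% of lost peaks and 0.704% of gained peaks, and in a window of 500 bases these shares were 2.32% and 2.82%.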

How the data were processed

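GC B cells of 17 mice were profiled by ATAC-seq. The authors aligned reads to mm10 with an nf-core pipeline, called consensus peaks over all libraries and deposited raw fragment counts per peak from featureCounts 2.0.1, in which a fragment counts in every peak that covers at least 0.2 of it. Centroblast and centrocyte libraries of the series were not analysed here. All 65483 peaks held 10 or more counts over the libraries. Peaks were placed with GENCODE M21, with starts as the file gives them.

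Counts were scaled by TMM and fitted in edgeR 4.0.16 (R 4.3.3) with 1 coefficient per genotype over all 17 libraries and no covariates. For each contrast edgeR's quasi-likelihood test was run, and p-values were adjusted by Benjamini-Hochberg over all peaks, or over the 3063 host genes for summed counts, at an adjusted p of 0.01. Values in parentheses beside a fold change are its SE and this adjusted p. Replicates are separate mice. Totals of 17483706 to 21857738 fragments limit precision, and the median biological coefficient of variation of intronic peaks was 0.109. Limits for a value of 0 (3 counts) cover counting error only.

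The test was checked on simulated counts for CK against WT. Over 65483 peaks, 45 of 200 peaks changed 1.5-fold and 128 of 200 changed 2-fold were called, with 1 and 5 false calls. Over 3063 host genes, 122 and 173 of 200 were called, with 1 and 0 false calls.

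Named peaks were, for each mutant against WT, up to 5 gained and 5 lost intronic peaks of lowest adjusted p in which all mutant mice lay on 1 side of all WT mice, outside 5 Mb windows with 5 or more C calls and at most 1 per host gene, together with CK calls in 6 gene lists and any call in CK against K or against the sum of C and K. Named host genes were the 5 with most intronic peaks, the 5 with most CK calls, the 5 gained and 5 lost of lowest adjusted p in CK, and those of the lists called on their sums. The members and lists were chosen with earlier results of these data known. The counts over lists include a few peaks whose genes are not reported here.

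Alternatives were DESeq2 1.42.0, its size factors in edgeR, total counts, loess offsets, 20 GC content bins, a filter of 1 CPM in 4 libraries, no filter, an adjusted p of 0.05, a fold change over 1.5, fits of only the genotypes compared, a replicate block, Y signal as a covariate, limits of 5 kb and 20 kb from a TSS, and leaving out windows or single mice. Values without peaks found only in read-through models, and shares within libraries with or without Y signal, were added after seeing the data.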

Additional observations from a re-analysis of the deposited data

Results flagged for a closer look

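In 332 groups of 4 or 5 mice behind the named peaks and host genes, 1 mouse stood far from the rest of its genotype in 19 (5.72%), where chance alone gives about 1 in 20. The sums over host genes hold the counts of named peaks, so these groups are not independent of each other.

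Among peaks, the far values were 0 CPM in K mouse 2 and 0.108 in CK mouse 2 at the Vti1a peak, 1.22 in C mouse 2 at Fancl, 14.3 in K mouse 2 at the Msi2 peak, 13.2 in CK mouse 3 at the last intron of Ikzf1, and 49.0 in K mouse 4 at the Jarid2 peak that starts at 44799242. WT mouse 4 was far above the other WT mice at Ciita with 79.7 CPM and at Rasgrp3 with 122. CK mouse 1 was high at Pdcd1lg2 with 6.40 CPM, and K mouse 1 was low at the Sorcs2 peak that starts at 36144094 with 7.32. At the Foxp1 peak that starts at 99202836, C mouse 2 was low with 26.6 CPM and K mouse 4 high with 35.9.

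Among sums over a host gene, WT mouse 4 was high at Msi2 with 416 CPM, Pdcd1lg2 with 11.3, Ciita with 85.7 and Rasgrp3 with 175. WT mouse 1 was high at Runx1 with 31.4 CPM, CK mouse 3 low at Fgfr2 with 424 and CK mouse 5 high at Dock10 with 32.5. WT mouse 4 thus accounted for 6 of the 19, in which Ciita and Rasgrp3 count both as a peak and as a sum that holds this peak. It also had the largest share of fragments in intronic peaks among WT mice, at 7.36%.

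At the Msi2 peak that starts at 88604715, the change in CK differed from the sum of the changes in C and K by -1.13 on the log2 scale (edgeR adjusted p = 0.00652), in a test of that difference itself.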

How the results depend on the processing

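Losses outnumbered gains among intronic calls in CK under every alternative run, with losses at 60.5% (GC content bins) to 79.1% (without WT replicate 2) of the calls. Over 745 results, each a named peak under 1 other setting, 682 stayed on their side of the threshold, 63 no longer passed and 0 turned direction. Of 1071 such results without 1 mouse, 156 no longer passed. The named peaks were chosen because they passed in the main fit, so the absence of turned directions is a description only. The causes of the changes below were not tested, beyond what a threshold or a narrower set of peaks does by construction.

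DESeq2 called 26 intronic peaks in C, 190 lost in K, 244 in CK against C, 184 in K against C, 5 in CK against K and 2 against the sum of C and K, and 115 host genes in K, 130 in CK against C, 118 in K against C and 2 in CK against K. Total counts gave 4 host genes in C. GC content bins gave 83 peaks in CK against C and medians of -0.017 in K and -0.013 in CK. The filter of 1 CPM in 4 libraries, and the fit of only the genotypes compared, left 0 peaks in CK against K. That fit also gave 35 peaks and 11 host genes in C. With Y signal as a covariate there were 215 peaks and 104 host genes in CK against C and 2 peaks against the sum of C and K.

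At an adjusted p of 0.05 there were 33 peaks in C, 98 gains and 355 losses in K, 371 gains and 858 losses in CK, 536 in CK against C, 363 in K against C, 5 in CK against K and 2 against the sum, and 16 host genes in C, 232 in K, 511 in CK, 248 in CK against C, 196 in K against C and 1 in CK against K. A fold change over 1.5 left 19 gained and 69 lost in K, 188 lost in CK and 73 in CK against C, and 4 host genes in C, 35 in K, 81 in CK, 20 in CK against C and 20 in K against C. Without windows rich in C calls, 6 peaks and 2 host genes were left in C and 0 peaks against the sum. Host genes with 3 or more intronic peaks gave 4 calls in C, 45 in K, 159 in CK and 1 in CK against K.

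At 5 kb from a TSS there were 2 peaks in CK against K and 2 against the sum, and shares of fragments of 10.9%, 11%, 10.4% and 10.3% for WT, C, K and CK. At 20 kb there were 14 gains and 57 losses in K, 88 gains and 210 losses in CK, 76 in CK against C, 52 in K against C and 0 against the sum, and shares of 3.54%, 3.56%, 3.36% and 3.36%. Of fragments more than 10 kb from a TSS the shares were 42.4%, 42.7%, 42.1% and 42.1%.

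Leaving out each mouse gave 9 to 22 peaks in C, 8 to 33 gains and 29 to 116 losses in K, 75 to 159 gains and 167 to 416 losses in CK, 36 to 146 in CK against C (fewest without C replicate 4), 20 to 116 in K against C (also C replicate 4), 0 to 4 in CK against K and 0 to 2 against the sum. The medians ran from -0.00064 to 0.028 in C, -0.082 to -0.046 in K and -0.073 to -0.046 in CK. Host genes ran from 3 to 9 in C, 25 to 82 in K (fewest without K replicate 1), 98 to 275 in CK (fewest without WT replicate 4), 24 to 82 in CK against C, 16 to 62 in K against C and 0 to 1 in CK against K, with 0 against the sum.

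Replicate numbers were not taken to pair the mice, since the labels give no shared litter or day and not every pair correlated over 0.1: 24 same-number pairs correlated at -0.10 to 0.22, with 12 over 0.1, other pairs at -0.24 to 0.27, and 10 libraries lay closest to their own number, a hint from the data and not the design. In WT, C and K, mice 1 and 2 had lower shares of fragments in intronic peaks than mice 3 and 4. In CK, mice 1 and 2 had 6.50% and 6.73% and mice 3 and 4 had 6.91% and 6.73%. Mice 1 and 2 thus lay at or below mice 3 and 4 in CK too, and a shared batch was not tested. With the replicate block there were 30 peaks in C, 55 gains and 226 losses in K, 210 gains and 591 losses in CK, 311 in CK against C, 194 in K against C and 4 in CK against K, and 13 host genes in C, 135 in K, 159 in CK against C, 118 in K against C and 3 in CK against K.

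Depth limits the shallow peaks, with a median SE of 0.32 on the log2 scale in the lowest of 5 bins by count against 0.083 in the highest.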
